A study of Mus musculus with 7 samples.

Results

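The islet hormone genes are the 8 genes Ins1, Ins2, Iapp, Gcg, Sst, Ppy, Pyy and Ghrl, chosen by name as the main peptide hormones of the mouse islet, out of 49315 genes counted. All 8 were found by symbol and all 8 passed the filter on low counts, with 19893 genes in all. They were read in islets of mice aged 7 days. The 3 control pools came from Nrf2lox/lox animals, which carry loxP-flanked Nrf2, and the 4 βNrf2KO pools from animals labelled as a β-cell knockout of Nrf2. Each pool held RNA of 5 animals, so the spread given here is between pools. No source used here names the promoter that drives Cre. Cre and the deletion differ together between the groups and cannot be told apart.

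Islets release peptide hormones from distinct endocrine cells. The β-cell makes insulin and, with it, islet amyloid polypeptide (Iapp), which is stored in the same granules. The α-cell makes glucagon (Gcg), the δ-cell somatostatin (Sst), the PP cell pancreatic polypeptide (Ppy) and the ε-cell ghrelin (Ghrl), while peptide YY (Pyy) is found in several islet cell types around birth. Each hormone is cut out of a longer precursor. Mice, unlike humans, have a pair of insulin genes: Ins2 is the ancestral gene, and Ins1 is a copy on another chromosome that arose by retroposition.

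The insulin genes are shown first, because the ratio between them separated the groups of pools and because near-identical copies can exchange reads. In GENCODE M21 (GRCm38) the coding sequence of Ins1 has 327 bases and that of Ins2 has 333, and 92.4% of 327 aligned positions are identical. The last 113 bases, which end in the stop codon and encode the end of the C-peptide and the whole A chain, are printed with the differing bases in capitals.
Ins1: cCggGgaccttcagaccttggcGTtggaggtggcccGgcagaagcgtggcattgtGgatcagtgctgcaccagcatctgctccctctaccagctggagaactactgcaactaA
Ins2: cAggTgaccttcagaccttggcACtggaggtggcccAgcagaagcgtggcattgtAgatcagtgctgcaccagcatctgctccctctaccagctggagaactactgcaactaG
The longest stretch of Ins1 coding sequence found unchanged in an Ins2 transcript has 56 bases. Of the 278 windows of 50 bases in the Ins1 coding sequence, 7 (2.52%) occur in an Ins2 transcript, and of the 253 windows of 75 bases none does (0). Neither the read length nor the rule for reads with several matches is given in the sources used here, and a small exchange of reads between the genes was not tested.

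The upstream sequences of 4 members are shown because Ins1 and Iapp, both β-cell genes, had estimates of opposite sign below, and Gcg and Sst stand for the α- and δ-cell. RefSeq promoter windows (GRCm38.p6) matched 7 of the 8 members, all but Ins2, and the 250 bases before the start are printed. The promoters of Ins1 and Ins2 could therefore not be compared. Capitals mark CATCTG (a core of the E-box bound by NeuroD1), TAAT (a homeodomain core), TGACGTCA (the cAMP response element) and TATAAA, each searched on both strands. TAAT and its reverse complement overlap once, in Iapp.
Ins1, chr19:52264047-52264296, plus strand: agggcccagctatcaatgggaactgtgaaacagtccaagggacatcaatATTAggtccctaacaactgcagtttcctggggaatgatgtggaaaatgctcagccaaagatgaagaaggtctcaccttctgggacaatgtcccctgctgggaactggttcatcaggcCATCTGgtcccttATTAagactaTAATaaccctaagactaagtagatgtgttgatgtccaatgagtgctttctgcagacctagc
Iapp, chr6:142298175-142298424, plus strand: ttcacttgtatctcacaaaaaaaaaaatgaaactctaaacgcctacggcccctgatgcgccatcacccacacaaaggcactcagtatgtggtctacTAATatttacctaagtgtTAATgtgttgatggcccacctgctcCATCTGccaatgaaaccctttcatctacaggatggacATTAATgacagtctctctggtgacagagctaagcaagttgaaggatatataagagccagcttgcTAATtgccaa
Gcg, chr2:62483654-62483903, minus strand: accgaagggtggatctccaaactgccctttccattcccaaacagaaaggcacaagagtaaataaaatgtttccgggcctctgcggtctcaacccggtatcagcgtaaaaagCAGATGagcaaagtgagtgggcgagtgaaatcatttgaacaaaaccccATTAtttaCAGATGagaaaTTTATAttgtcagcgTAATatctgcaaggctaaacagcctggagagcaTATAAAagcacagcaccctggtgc
Sst, chr16:23890845-23891094, minus strand: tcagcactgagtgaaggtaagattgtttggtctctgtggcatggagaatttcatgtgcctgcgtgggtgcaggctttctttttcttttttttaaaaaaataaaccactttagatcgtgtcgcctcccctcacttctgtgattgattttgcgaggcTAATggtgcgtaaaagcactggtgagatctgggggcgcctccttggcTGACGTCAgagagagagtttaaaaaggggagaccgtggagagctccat
CATCTG occurred 1 time each in Ins1 and Iapp and 2 times in Gcg, and in 14.4% of 32851 RefSeq windows of this length. TAAT occurred 3 times in Ins1, 5 times in Iapp, 2 times in Gcg and 1 time in Sst, and in 54.9% of all windows. TGACGTCA stood in Sst alone among these 4, and in 1.55% of all windows. TATAAA occurred 2 times in Gcg, and in 12.4% of all windows.

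The pools differed in ways that bear on every hormone value. Total counts ran from 21603654 to 25373105 in control and from 18187382 to 20847474 in βNrf2KO pools. Mitochondrial transcripts made up 43.0%, 51.8% and 14.6% of the libraries of control pools 1, 2 and 4. For βNrf2KO pools 1 to 4 the figures were 27.7%, 22.4%, 20.6% and 10.02%. Control pool 4 therefore stands apart from the other controls. Pool values of each hormone gene below are CPM of the counts outside the mitochondrial genome (nuclear CPM), unless another scale is named. Nfe2l2, the gene of Nrf2, was read at 5.44 to 6.43 log2 CPM in control and 5.86 to 6.08 in βNrf2KO pools. That count covers all its exons and all islet cells, so it does not check the deletion. Cre was counted 24, 23, 46 and 73 times in βNrf2KO pools 1 to 4 and 0 times in each control pool. All 10 β-cell markers, 8 α-cell markers and 6 δ-cell markers were tested, and no gene of these lists was at 0 in all pools. The summed CPM of the β-cell list ran from 902 to 3033 in control and from 2071 to 3745 in βNrf2KO pools. The acinar list summed to 81.9 to 372 and 77.2 to 284 CPM, with 1 of 15 genes at 0 in every pool. The mesenchymal list summed to 1249 to 1919 and 1090.5 to 1845 CPM. In the fit described below, all 13 tested acinar and all 10 mesenchymal markers had lower estimates in βNrf2KO, with median log2 fold changes of -0.96 and -0.82. At an unadjusted p under 0.05 were 7 of the mesenchymal and 1 of the acinar markers, where 5.23% of all tested genes passed in that direction. All 8 neuronal and Schwann cell markers were lower too, with a median of -0.69, and 2 of them had an unadjusted p under 0.05. Of the 8 immune markers 7 were lower, with a median of -0.38. Higher estimates were seen for 9 of 10 β-cell markers (median 0.38), 7 of 8 α-cell markers (0.09) and 7 of 8 endothelial markers (0.25). The β-cell marker with a lower estimate was Mafa. Ductal markers were split, with 4 higher and 3 lower, as were the tested PP and ε-cell markers, with 2 higher and 2 lower. The part of these cells in the hormone values was not tested.

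**Figure D1:**
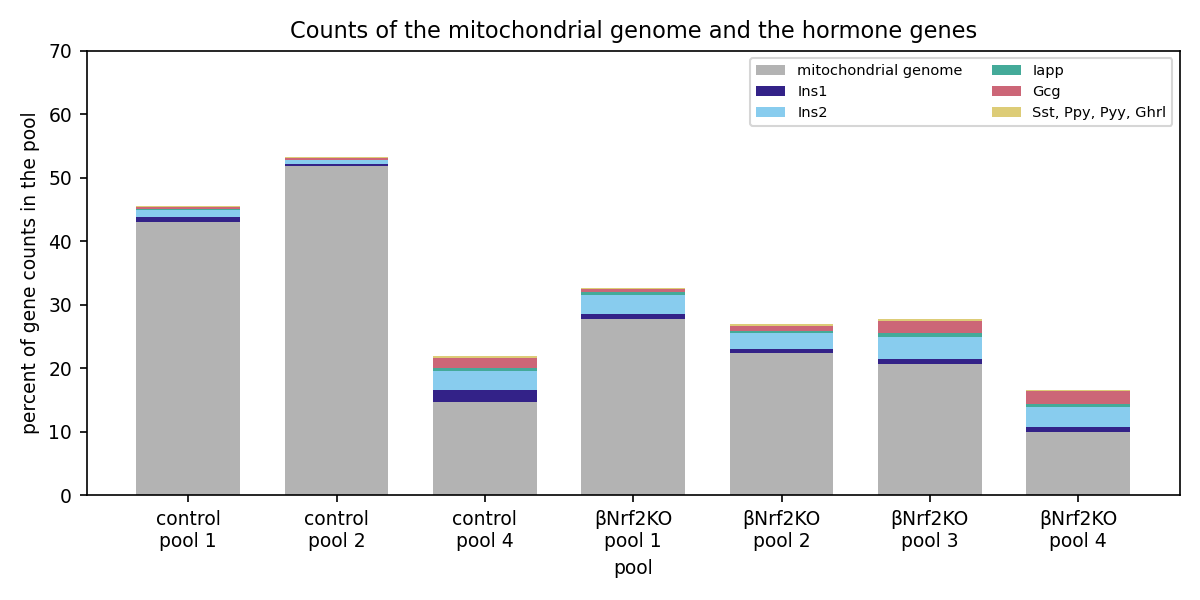
Stacked bars give the percent of gene counts (vertical axis) taken by the mitochondrial genome and by the hormone genes in each of the 7 pools (horizontal axis). The mitochondrial part is 43.0% and 51.8% in control pools 1 and 2 and 14.6% in control pool 4, and the 8 hormone genes take 1.38% to 7.36% of counts.

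The hormone genes together took 2.53%, 1.38% and 7.36% of all counts in control pools 1, 2 and 4. In βNrf2KO pools 1 to 4 they took 4.83%, 4.54%, 7.08% and 6.58%. Outside the mitochondrial genome their share was 4.44%, 2.86% and 8.62% in control and 6.68%, 5.85%, 8.93% and 7.31% in βNrf2KO pools. On either scale the βNrf2KO pools sat above control pools 1 and 2, and control pool 4 fell among or above them. In bulk tissue, fewer cells of a type and less RNA per cell cannot be told apart. Levels between genes were compared as CPM of the whole library per kilobase of exon, using the deposited lengths. Ins2 was the highest hormone gene per kilobase in all 7 pools, Ppy, Sst, Pyy and Ghrl took the last 4 places in that order in all 7, and Ins1, Gcg and Iapp filled the places between. Ins1 came second in the 3 control pools and in βNrf2KO pools 1 and 2. In βNrf2KO pools 3 and 4 Gcg stood second, at 13461 and 13188 CPM per kilobase against 7522 and 7160.4 for Ins1. Among all genes, mitochondrial ones included, Ins2 ranked between 1 and 15 on this scale in the 7 pools, and Ghrl between 632 and 3511. Ins2 ranked 12 and 15 in control pools 1 and 2, which had the largest mitochondrial part, and 2 in control pool 4. The SDs of neighbours overlapped: Ppy averaged 1249 ± 796 CPM per kilobase in control (SD, n = 3), Sst 893 ± 531 and Pyy 780.5 ± 594.

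None of the 8 hormone genes passed the threshold between βNrf2KO and control. With edgeR's quasi-likelihood test, adjusted by Benjamini-Hochberg over 19893 genes, 0 of 8 were called at an adjusted p of 0.05, as were 0% of all genes. At an unadjusted p under 0.05 there were 0 of 8, where 8.46% of all tested genes passed. DESeq2 and limma-voom each had 3 of 8 at that unadjusted level, where 2077 of 33919 and 1236 of 19893 tested genes passed, and called 0 of 8 after adjustment. A block for the pool number brought 14 genes past the edgeR threshold, among them 0 of 8 hormone genes. Under the block 3 of 8 (Ins2, Iapp and Sst) had an unadjusted p under 0.05, as had 2415 of 19893 tested genes. All 8 hormone genes had overlapping groups of pools, while 7% of tested genes had groups that did not overlap. The median log2 fold change of all tested genes was -0.01.

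**Figure D2:**
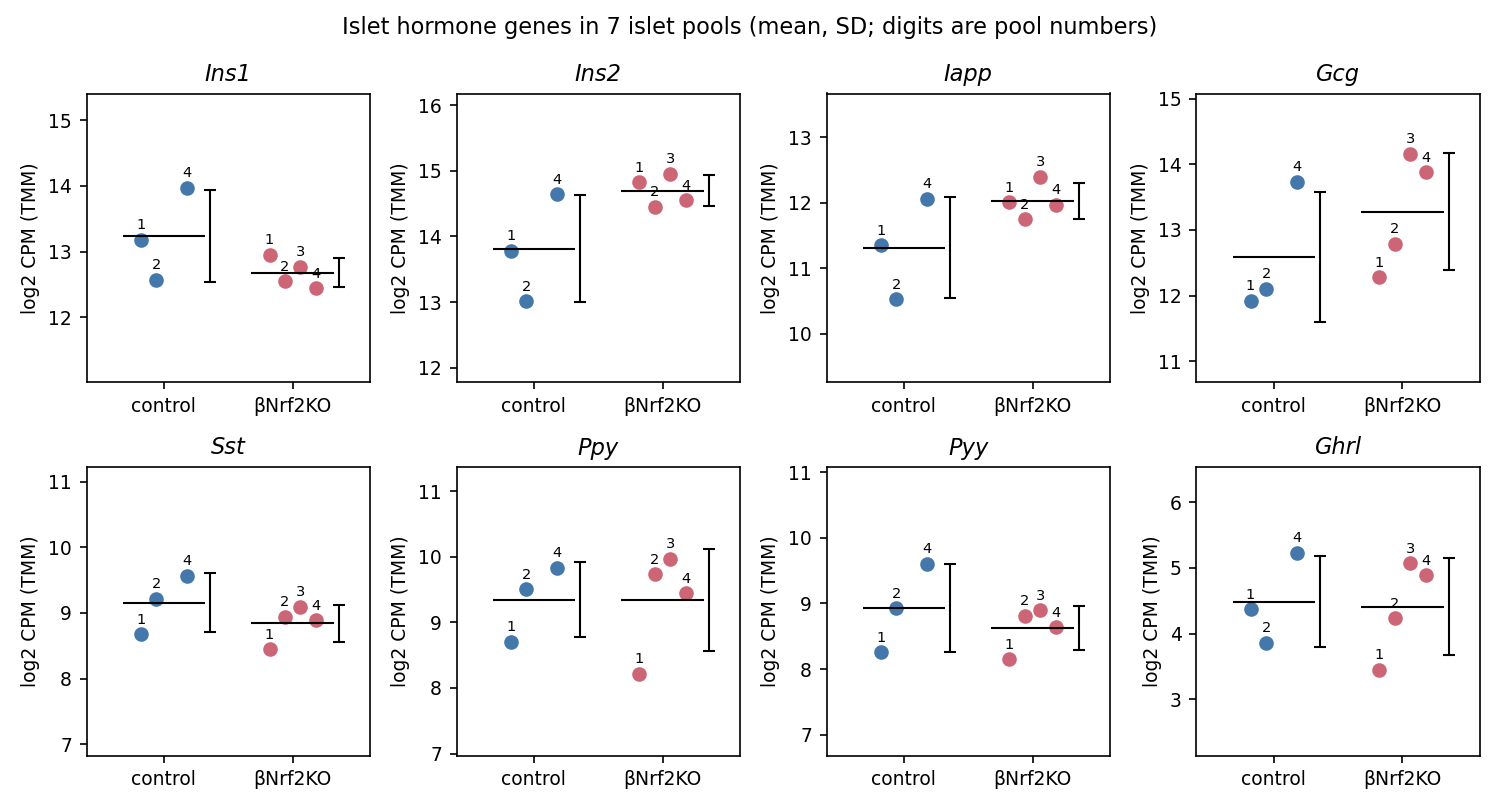
Each panel plots 1 hormone gene, with log2 CPM after TMM normalization on the vertical axis and the 2 groups on the horizontal axis. Points are pools with their numbers, lines are means and bars are SD; the vertical axes differ between panels but span the same range. Control pool 4 is the highest control in all 8 panels, and the groups overlap in all 8.

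Ins1 (ENSMUSG00000035804, chromosome 19, 52264323 to 52265456, plus strand, GRCm38), the retroposed insulin gene, was read at 13273, 7899 and 22357 nuclear CPM in control pools 1, 2 and 4. In βNrf2KO pools 1 to 4 it was read at 11273, 8632, 9630.4 and 8085. On this scale all 4 βNrf2KO pools lay inside the control range. In log2 CPM after TMM normalization, βNrf2KO pools 2 and 4 (12.55 and 12.44) lay below the lowest control, pool 2 (12.57). The log2 fold change was -0.66 ± 0.31 (SE; edgeR adjusted p = 0.571), and -0.22 without control pool 4. Ins2 (ENSMUSG00000000215, chromosome 7, 142678656 to 142743381, minus strand), the ancestral insulin gene, was read at 20159, 10732 and 35552 nuclear CPM in control pools and at 41276, 32196.5, 44001.5 and 34964 in βNrf2KO pools. Pools 1 and 3 of βNrf2KO exceeded the highest control, pool 4, and βNrf2KO pools 2 and 4 lay between control pools 1 and 4. Its fitted difference on the log2 scale was 0.75 ± 0.36 (SE; edgeR adjusted p = 0.571), with 0.43 without control pool 2 and 1.26 without control pool 4.

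The insulin genes thus had estimates of opposite sign, and both were also read within pool numbers. In the pairs numbered 1 and 2, Ins1 differed by -0.23 and -0.02 log2 CPM (βNrf2KO minus control), while Ins2 differed by 1.04 and 1.44. In pair 4 Ins1 differed by -1.53 and Ins2 by -0.09. Both differences were lowest in pair 4 and highest in pair 2, and that of Ins1 was below that of Ins2 in every pair. Summed over both genes, insulin stood at 19057, 8972 and 49444 CPM of the whole library in control. For βNrf2KO the sums were 37973, 31685, 42557.5 and 38734. Their spread between pools was large in control and small in βNrf2KO: the SD of Ins1 was 0.70 and 0.23 log2 CPM, and that of Ins2 0.81 and 0.23. The median SD of all tested genes was 0.39 in control and 0.28 in βNrf2KO pools.

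Within each pool, where library size and normalization cancel, the ratio of insulin counts separated the groups. Ins1 made up 39.7%, 42.4% and 38.6% of insulin counts in control pools 1, 2 and 4. It made up 21.5%, 21.1%, 18.0% and 18.8% in βNrf2KO pools 1 to 4. Every βNrf2KO pool was below every control pool, and the groups were far apart relative to their spread. Lack of overlap alone was not rare for such ratios. Ins1 per count of another tested gene was lower with no overlap for 16.5% of genes. Ins2 per count of another tested gene was higher with no overlap for 14.5%. As a ratio of Ins1 to Ins2 counts, the βNrf2KO value was 0.367 times the control value. The log2 difference was -1.45 ± 0.10 (SE, n = 3 and 4). The exact two-sided permutation p was 0.0571. That is the smallest value this test gives with 3 and 4 pools, because it doubles the one-sided p. Adjusted, it was 0.2 over the 7 ratios planned, or 0.171 over all 9 ratios with the pair for Iapp added later. As the groups did not overlap, the ratio had to be lower in βNrf2KO in all 3 pairs of pool numbers, so the pairs add no support. The mean log2 difference within pairs was -1.39, the same as without βNrf2KO pool 3, which has no partner. Leaving out each pool gave -1.50 to -1.38. Per kilobase of exon the ratio was 0.850, 0.950 and 0.812 in control and 0.353, 0.346, 0.283 and 0.299 in βNrf2KO pools. The length of Ins2 in the files, 1312 bases, is summed over 20 exon records, so the per-kilobase ratio depends on the gene model. The lengths cancel in the comparison between groups. Which reads count as Ins2 still follows that model, and another model was not tested. Beside these values, Cre stood at 1.32, 1.20, 2.36 and 3.50 CPM in βNrf2KO pools 1 to 4. Cre and the loss of Nrf2 cannot be told apart here. The sources used here do not say where in the genome the Cre allele sits, so they leave unstated whether it lies at an insulin gene such as Ins1, and its part in this ratio was not tested.

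Iapp, the amyloid polypeptide released with insulin (ENSMUSG00000041681, chromosome 6, 142298423 to 142303961, plus strand), was read at 3732, 1917 and 5936 nuclear CPM in control pools 1, 2 and 4. In βNrf2KO pools it was read at 5855, 4930.1, 7458 and 5812. Of the 4 βNrf2KO pools, pool 3 exceeded control pool 4. Iapp had a log2 fold change of 0.60 ± 0.32 (SE; edgeR adjusted p = 0.573), with 0.29 without control pool 2 and 1.05 without control pool 4. The ratio of Iapp to summed insulin counts was 0.106 ± 0.00517 in control (SD, n = 3) and 0.127 ± 0.0128 in βNrf2KO pools (SD, n = 4), which overlapped (exact permutation p = 0.114).

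Iapp was then set against each insulin gene, a comparison chosen after the values were seen. Iapp per Ins1 count was 0.281, 0.243 and 0.265 in control pools 1, 2 and 4. It was 0.519, 0.571, 0.774 and 0.719 in βNrf2KO pools 1 to 4, with no overlap and a log2 difference of 1.28 ± 0.15 (SE, n = 3 and 4; exact permutation p = 0.0571, and 0.171 adjusted over all 9 ratios). Iapp per Ins2 count was 0.185, 0.179 and 0.167 in control and 0.142, 0.153, 0.169 and 0.166 in βNrf2KO pools, which overlapped, with a log2 difference of -0.17 ± 0.07 (SE; exact permutation p = 0.114, and 0.206 adjusted over all 9 ratios). The groups thus did not overlap for Iapp per Ins1 count and overlapped for Iapp per Ins2 count and per summed insulin count. These ratios share their counts with the ratio of Ins1 to Ins2 and are not independent of it. Iapp was among the 16.5% of tested genes for which Ins1 per count was lower in βNrf2KO with no overlap.

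**Figure D3:**
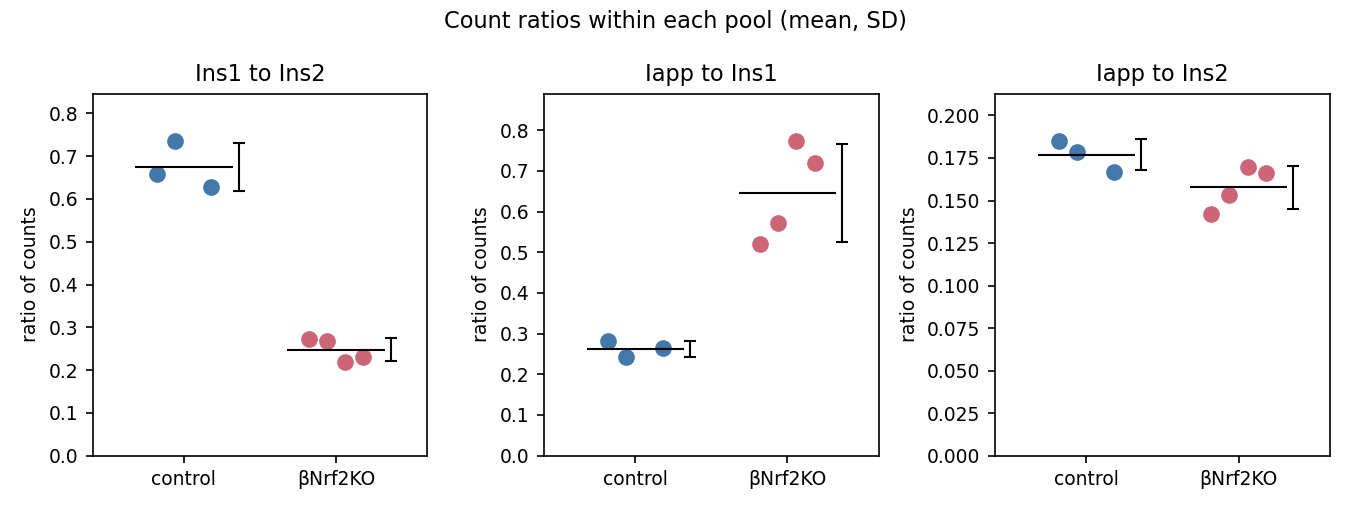
Points are pools, lines means and bars SD of the ratio of counts within a pool (vertical axis, from 0) for control and βNrf2KO (horizontal axis). Ins1 to Ins2 averages 0.674 and 0.248 and Iapp to Ins1 0.263 and 0.646 with no overlap, while Iapp to Ins2 averages 0.177 and 0.158 with overlapping groups.

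The same contrast was read against other genes of the β-cell. Against the 10 β-cell markers, Ins1 per marker count was lower in βNrf2KO for 9, and for 6 of them (Pdx1, G6pc2, Slc30a8, Ero1lb, Trpm5 and Prlr) every βNrf2KO pool was below every control pool. The median log2 difference was -0.98. Ins2 per marker count was higher for all 10, with a median of 0.47 and no overlap for 1, Mafa, a transcription factor that activates insulin genes. Iapp per marker count was higher for 8 of 10, with a median of 0.30 and no overlap for 1, again Mafa. Over all other tested genes, Ins1 per count was lower with no overlap for 16.5% and higher for 0.0302%. Ins2 per count was higher with no overlap for 14.5% and lower for 0.0352%, and Iapp per count higher for 8.1% and lower for 0.0955%.

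Gcg, whose product is glucagon in the α-cell (ENSMUSG00000000394, chromosome 2, 62474530 to 62483650, minus strand), was the most variable hormone gene in both groups. It was read at 5545, 5713 and 18938 nuclear CPM in control pools 1, 2 and 4 and at 7061, 10183, 25344 and 21898 in βNrf2KO pools 1 to 4. Control pool 4 and βNrf2KO pools 3 and 4 were high, and the remaining 4 pools were low. Gcg had a log2 fold change of 0.64 ± 0.54 (SE; edgeR adjusted p = 0.685), with 0.31 without βNrf2KO pool 3 and 1.45 without control pool 4. Its SD was 1.00 log2 CPM in control and 0.89 in βNrf2KO pools, and 7.16% and 4.57% of tested genes had a larger one. Within pool numbers 1, 2 and 4 Gcg differed by 0.36, 0.68 and 0.15 log2 CPM. Per summed insulin count it was 0.166, 0.307 and 0.327 in control and 0.134, 0.249, 0.473 and 0.509 in βNrf2KO pools, which overlapped (exact permutation p = 0.686). The summed α-cell markers were 339, 310.1 and 988 CPM in control pools and 478, 631, 956 and 1029 in βNrf2KO pools, so the 3 pools with high Gcg were also the highest for these markers.

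Sst, the somatostatin gene of the δ-cell (ENSMUSG00000004366, chromosome 16, 23889581 to 23890844, minus strand), was read at 584, 769.7 and 1056 nuclear CPM in control pools and at 495, 706, 755 and 689.5 in βNrf2KO pools. The βNrf2KO pools lay below control pools 2 and 4, and control pool 1 fell among them. In pairs 1, 2 and 4 Sst differed by -0.23, -0.27 and -0.68 log2 CPM, lower in βNrf2KO in all 3. Sst had a log2 fold change of -0.34 ± 0.22 (SE; edgeR adjusted p = 0.625), and -0.11 without control pool 4. Per summed insulin count Sst was 0.0175, 0.0413 and 0.0182 in control and 0.00942, 0.0173, 0.0141 and 0.0160 in βNrf2KO pools. Every βNrf2KO pool was below every control pool, though βNrf2KO pool 2 and control pool 1 nearly met. How many other genes separate in this way per summed insulin count was not computed. For Ins2 alone, its count per count of another gene was higher in βNrf2KO with no overlap for 14.5% of tested genes. The log2 difference was -0.77 ± 0.45 (SE, n = 3 and 4; exact permutation p = 0.0571, 0.2 adjusted over the 7 planned ratios), and -0.37 without control pool 2. All 6 δ-cell markers had higher estimates in βNrf2KO, with a median of 0.36, and Sst was lower, so the hormone and the markers differed in sign. None of these passed the threshold.

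Ppy and Pyy encode related peptides of the neuropeptide Y family. They lie side by side on the minus strand of chromosome 11, with 5357 bases between the start of Ppy (102099930 to 102101319) and the end of Pyy (102106676 to 102107832). Ppy was read at 598, 942 and 1265 nuclear CPM in control pools and at 423, 1226, 1383 and 1008 in βNrf2KO pools, with a log2 fold change of 0.05 ± 0.37 (SE; edgeR adjusted p = 0.965). Its sign turned with the block (-0.22 ± 0.19, SE). Pyy was read at 438, 630.4 and 1083 nuclear CPM in control pools and at 405, 645, 658 and 576 in βNrf2KO pools. No βNrf2KO pool came near control pool 4 in Pyy, whereas in Ppy βNrf2KO pool 3 exceeded it and pool 2 was close below it. The log2 fold change of Pyy was -0.38 ± 0.28 (SE; edgeR adjusted p = 0.644), and 0.02 without control pool 4. Pool number 1 was the lowest of its group for both genes, in control and in βNrf2KO. Per summed insulin count, Ppy differed by -0.47 ± 0.63 and Pyy by -0.77 ± 0.46 on the log2 scale (SE, n = 3 and 4; exact permutation p = 0.571 and 0.171). Without control pool 2 these were -0.02 and -0.40.

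Ghrl, the ghrelin gene of the rare ε-cell (ENSMUSG00000064177, chromosome 6, 113716119 to 113719880, minus strand), was the weakest member, with 362, 219 and 1128 counts in control pools and 202, 400, 716 and 804 in βNrf2KO pools. That was 29.4, 18.7 and 52.1 nuclear CPM in control and 15.4, 26.9, 46.4 and 42.9 in βNrf2KO pools. The high pools were the same as for Gcg. The log2 fold change was -0.07 ± 0.40 (SE; edgeR adjusted p = 0.961), and 0.40 without control pool 4. Exons of the predicted genes Gm26982 and Gm44033 overlap Ghrl on the other strand, with 19 to 73 counts per pool. No source used here gives the strand setting of the counting, so reads of these genes cannot be told apart where they overlap. Per summed insulin count Ghrl differed by -0.54 ± 0.40 on the log2 scale (SE, n = 3 and 4; exact permutation p = 0.229), and by -0.16 without βNrf2KO pool 1.

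**Figure D4:**
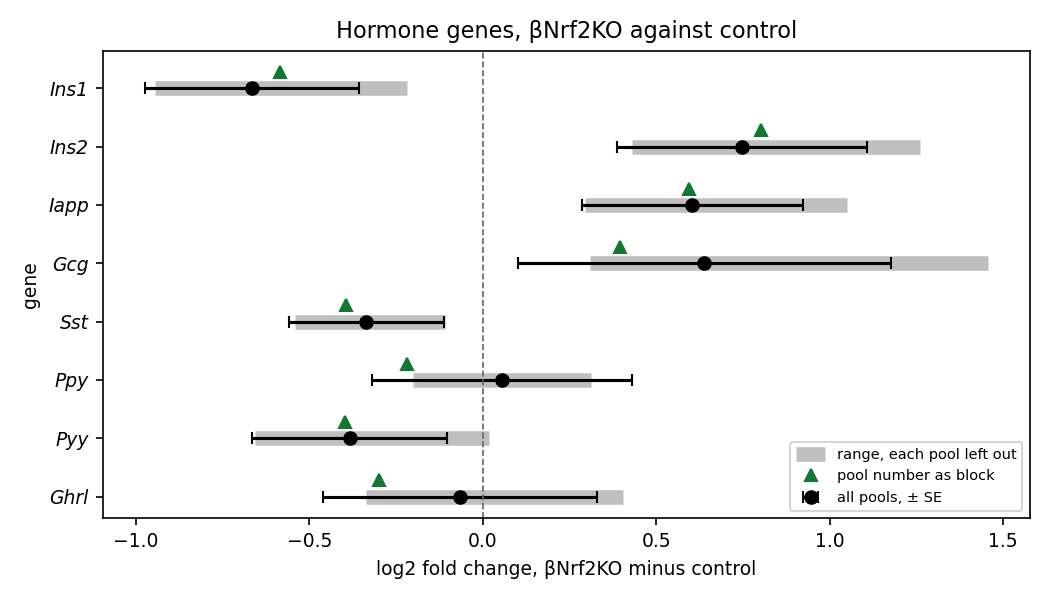
Points give the log2 fold change of βNrf2KO minus control (horizontal axis) of each hormone gene (vertical axis) with its SE, triangles the value with the pool number as a block, and grey bars the range when each pool is left out. Ins1 lies at -0.66 and Ins2 at 0.75, no gene is called, and the grey bars of Ppy, Pyy and Ghrl cross 0.

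Genes with the most similar profile were sought for Ins1, Ins2, Gcg and Sst, as the smallest root mean square difference of centred log2 CPM over the 7 pools among 6459 genes. Iapp was the second nearest gene to Ins2 (0.12), after Rnf128 (0.12) and before Lsr (0.15). For Ins1 the nearest were Ubb (0.27), Hist1h4f (0.28) and Rpl8 (0.28), and among the hormone genes Sst (0.47) and Pyy (0.49), with Iapp at 0.66 and Ins2 at 0.73. The nearest to Gcg were Cnr1 (0.23), Homez (0.31) and Gpx3 (0.33), and among the hormone genes Ghrl (0.49). The nearest to Sst were Tmem25 (0.07), Yrdc (0.10) and Olfm1 (0.10), and among the hormone genes Pyy (0.13). Ins2 with Iapp and Sst with Pyy were the nearest pairs of hormone genes seen from these 4. All these profiles share the same 7 libraries and their depth.

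Regulators of the hormone genes were described by counts. Of 31 tested transcription factors and cofactors, 0 passed the edgeR threshold, 21 had higher and 10 lower estimates, and the median log2 fold change was 0.07, against -0.01 for all tested genes. At an unadjusted p under 0.05 there were 2 higher and 2 lower, where 3.23% of all tested genes passed as higher and 5.23% as lower. These were Mafa, an activator of insulin transcription in mature β-cells (-0.78 ± 0.22, SE), and the LIM cofactor Ldb1 (-0.47 ± 0.21), with Creb1, which binds the cAMP response element (0.61 ± 0.22), and Neurod1, which binds the insulin E-box (0.53 ± 0.22), each with edgeR adjusted p = 0.571. Mafa was the 1 regulator of 31 whose groups of pools did not overlap, where 7% of all tested genes had such groups. Pdx1, the homeodomain activator of insulin genes, differed by 0.36 ± 0.22 (SE; edgeR adjusted p = 0.602), and was named after its value was seen.

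A list of genes for the maturation of hormone precursors had a median log2 fold change of 0.25. Of its 17 tested genes 14 were higher, 3 lower and 0 called by edgeR. Beside enzymes it held the granule proteins Chga, Chgb, Scg2, Scg3 and Vgf, the convertase inhibitor Pcsk1n and the zinc transporter Slc30a8. The smallest p belonged to Ero1l, an oxidase of the endoplasmic reticulum (1.33 ± 0.32, SE), the prohormone convertase Pcsk2 (0.50 ± 0.27) and Ero1lb, the oxidase of β-cells that helps insulin fold (0.38 ± 0.20), with edgeR adjusted p = 0.571, 0.572 and 0.575. Among the receptors of these hormones 17 of 21 were tested, 11 were higher and 6 lower, and 0 were called, with a median of 0.08. Igf1r, the receptor of insulin-like growth factor that insulin also binds weakly, differed by 0.43 ± 0.19, the Y1 receptor Npy1r by -1.14 ± 0.53 and Ramp1, a partner of the amylin and CGRP receptors, by -0.66 ± 0.31 (edgeR adjusted p = 0.571 each). Other islet and gut peptides were tested for 12 of 24 genes, 6 higher and 6 lower, with a median of -0.02 and 0 called. The members with the smallest p were the growth factor Igf2 (-0.63 ± 0.27), Ucn3, a peptide of β-cells (0.39 ± 0.28), and Cartpt (-0.70 ± 0.60), with edgeR adjusted p = 0.571, 0.644 and 0.684.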

How the data were processed

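Islet RNA depleted of ribosomal RNA was sequenced from 3 control and 4 βNrf2KO pools. The deposited files hold whole-number counts for each gene, not normalized. The tools listed in the submitters' processing notes are STAR 2.5.2b, featureCounts of Subread 1.5.2, Trimmomatic 0.36 and bcl2fastq 2.20. The gene lengths used for CPM per kilobase are the exonic lengths deposited beside the counts. The notes name GRCm39, but 91.4% of 49056 gene IDs shared with GENCODE M21 have its GRCm38 coordinates, so GRCm38 is given. Cre, counted as a gene, entered neither library sizes nor tests. A combined table with 7 columns held the same counts and was not used.

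Tests used edgeR 4.0.16 in R 4.3.3 (TMM, filterByExpr with a minimum count of 10, robust quasi-likelihood test, threshold 0.05). The SE is the log2 fold change divided by the root of F. Tables were read with pandas 2.3.3. On simulated counts with log2 changes of 3 planted in 200 genes, the test recovered 100% of them, with 5 false calls. Changes as small as those of the hormone genes were not simulated. Ratios were compared by exact permutation over the 35 splits of the pools (scipy 1.17.1), on log2 ratios. The two-sided p doubles the smaller one-sided p. Coding sequences were aligned with Biopython 1.88, and figures drawn with matplotlib 3.10.9. Alternatives were RLE and upper-quartile scaling, no mitochondrial genome, no filter, a filter of 1 CPM in 3 pools, DESeq2 1.42.0, limma-voom (limma 3.58.1), a threshold of 0.1, the pool number as a block and each pool left out.

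Pools with the same number, after removal of group means, correlated across tested genes at 0.376, 0.229 and 0.323 for numbers 1, 2 and 4, and other combinations at -0.353 to 0.241. The combination of control pool 4 with βNrf2KO pool 3 (0.241) exceeded that of number 2 (0.229). Pairs by number were used on the data alone, as no label explains them. They entered only the block and the differences within pairs, while the main edgeR and permutation tests left them out. No control has the number of βNrf2KO pool 3, so that pool adds nothing to the block estimates. Named genes are the 8 members, the 3 nearest profiles for 4 of them (mean log2 CPM at least 3, SD at least 0.2) and the 3 genes with the smallest p per pathway list (4 for regulators). Members and lists were chosen with earlier results of these data known.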

Additional observations from a re-analysis of the deposited data

How the results depend on the processing

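No hormone gene was called under any alternative run. The number of genes called, 0 with all pools by edgeR, was 1 by DESeq2 and 14 with the pool number as a replicate block, and 0 to 1 when each pool was left out. The block changed no call of a hormone gene. A ratio could not be called at 0.05 with or without the block, because neither exact test as run can go that low. Ppy (0.05) was -0.22 with the block and ranged from -0.20 to 0.31 with each pool left out, with a negative value without control pool 1 (-0.20), βNrf2KO pool 2 (-0.04) or βNrf2KO pool 3 (-0.15). Ghrl (-0.07) was 0.0064 by limma-voom and ranged from -0.34 to 0.40, and was positive without control pool 4 (0.40), βNrf2KO pool 1 (0.15) or βNrf2KO pool 2 (0.02). Pyy ranged from -0.66 to 0.018, and was positive without control pool 4. The log2 difference of Gcg per insulin count (0.23) ranged from -0.080, without control pool 1, to 0.62, and was -0.02 without βNrf2KO pool 4. The cause was not tested. Ins1, Ins2, Iapp, Gcg and Sst, and the ratios of Ins1 to Ins2 and of Iapp to Ins1, kept their sign under every alternative. No scaling moved the median of all genes by 0.1, but each aligns the pools on the bulk of genes, so this does not check the scaling. The exact permutation test of a ratio as run cannot go below p = 0.0571, and with 3 pairs the exact test of a ratio cannot go below p = 0.25. The lowest count of a hormone gene in a pool was 202, for Ghrl, and the effect of depth was not tested.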
